A study of Mus musculus with 16 samples.

Results

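The choroid plexus epithelium genes described here are 31 genes, named by symbol, out of the 49671 gene rows counted in mouse hippocampus. Each symbol matched exactly 1 Ensembl identifier of the table, and all 31 passed the filter on low counts, Kcne2 by reaching it in only the 4 libraries it asks for, and Steap1, Slc4a5 and Tmem72 by 5 or 6 libraries, the high ones among them. The 16 bulk RNA-seq libraries were made from the hippocampus of female mice aged 8 months, 4 libraries in each of 4 groups. PS19_p16KO mice carry the PS19 tau transgene and the p16 knockout, PS19 mice carry the transgene with wild-type p16, p16KO mice carry the knockout without the transgene, and WT mice are wild type for both. In the PS19 line the mouse prion promoter drives human tau with a mutation of familial tauopathy, mainly in neurons. Cdkn2a encodes p16, which holds back the cell cycle in senescent cells. The labels do not say how the p16 allele was made, whether the groups were littermates, or how the hippocampus was freed from the plexus of the lateral ventricle, which lies against it. Whether the replicates of a group are separate animals is also unstated, so p-values here measure the spread between these samples, which may be technical.

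The choroid plexus is a fold of epithelium over a vascular core that hangs in the brain ventricles and secretes cerebrospinal fluid. Its epithelial cells move ions and water from blood to fluid through channels, carbonic anhydrases and bicarbonate transporters, and they are sealed by tight junctions. They also secrete carrier proteins, of which transthyretin, the product of Ttr, is the most abundant, and they carry folate and hormones into the fluid. The epithelium is a tissue of its own beside the hippocampus, while some of its genes are also used by neurons, oligodendrocytes, meningeal cells or ependyma, the ciliated lining of the ventricles. The members fall by role into secreted and carrier proteins (Ttr, Folr1, Enpp2, Kl, Sostdc1, F5, Lbp), transport of ions, water and sulfate (Kcne2, Kcnj13, Clic6, Aqp1, Slc4a5, Car12, Slc13a4, Trpv4), receptors and enzymes (Prlr, Ace, Abca4, Sulf1, Steap1), junctions, matrix and cytoskeleton (Cldn1, Cldn2, Col8a1, Col8a2, Col9a3, Krt8, Krt18, Calml4), the membrane protein gene Tmem72, and the homeobox factors Otx2 and Msx1.

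The members lie on 15 chromosomes. The closest are the keratin genes Krt8 and Krt18, 23.7 kb apart on chromosome 15, and the ion channel genes Kcne2 and Clic6, 187.6 kb apart on chromosome 16. The start regions of 5 members are shown because these genes moved together between libraries: Kcne2, Slc4a5 and Tmem72 kept close to a fixed ratio to Ttr, and Ace and Abca4 hold the core letters of an Otx site. They are RefSeq windows of GRCm38.p6, from 250 bases before to 50 bases after the start, printed 5′ to 3′ on the strand of the gene. Capitals mark TAATCC, the core site of Otx factors, on either strand.
Kcne2, chr16:92292139-92292438, plus strand: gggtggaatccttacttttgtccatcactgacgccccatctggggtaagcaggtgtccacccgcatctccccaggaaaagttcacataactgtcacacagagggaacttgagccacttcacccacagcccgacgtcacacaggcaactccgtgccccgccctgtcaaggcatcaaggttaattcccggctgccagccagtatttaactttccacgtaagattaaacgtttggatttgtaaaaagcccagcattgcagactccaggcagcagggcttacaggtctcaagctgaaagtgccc
Slc4a5, chr6:83237125-83237424, plus strand: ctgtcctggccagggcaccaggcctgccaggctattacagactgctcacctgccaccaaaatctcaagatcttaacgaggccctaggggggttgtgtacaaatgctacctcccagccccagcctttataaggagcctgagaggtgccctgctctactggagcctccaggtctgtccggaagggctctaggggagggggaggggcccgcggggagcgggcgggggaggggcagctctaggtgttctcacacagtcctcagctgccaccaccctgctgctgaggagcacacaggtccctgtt
Tmem72, chr6:116716709-116717008, minus strand: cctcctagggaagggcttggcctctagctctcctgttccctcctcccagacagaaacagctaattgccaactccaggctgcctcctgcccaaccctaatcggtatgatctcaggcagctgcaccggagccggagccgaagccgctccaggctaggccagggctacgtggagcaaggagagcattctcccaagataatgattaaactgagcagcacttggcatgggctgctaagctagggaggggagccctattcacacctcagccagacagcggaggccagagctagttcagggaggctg
Ace, chr11:105967698-105967997, plus strand: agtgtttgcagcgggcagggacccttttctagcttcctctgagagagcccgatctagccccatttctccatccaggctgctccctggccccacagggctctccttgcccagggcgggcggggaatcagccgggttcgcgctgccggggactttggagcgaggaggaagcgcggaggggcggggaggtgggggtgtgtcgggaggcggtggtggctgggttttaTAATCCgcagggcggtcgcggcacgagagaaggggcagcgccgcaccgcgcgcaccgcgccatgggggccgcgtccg
Abca4, chr3:122044210-122044509, plus strand: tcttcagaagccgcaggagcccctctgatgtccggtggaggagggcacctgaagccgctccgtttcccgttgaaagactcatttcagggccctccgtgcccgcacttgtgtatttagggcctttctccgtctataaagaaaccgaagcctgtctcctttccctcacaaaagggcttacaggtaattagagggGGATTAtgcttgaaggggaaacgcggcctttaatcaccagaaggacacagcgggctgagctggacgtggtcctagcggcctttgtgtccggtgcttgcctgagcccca
Of the 31 members, 23 had a window in the RefSeq table, and TAATCC on either strand was found for 3 of them, Ace, Abca4 and Otx2. Over all genes of that table, 8.14% had a window with it. The forkhead letters GTAAACA were found for 1 member, Prlr, against 4.05% of all genes. No member's window held both motifs, and a match is a description of the letters only.

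Levels are CPM, the usual depth-scaled unit: the counts of a gene set against all gene counts of its library, without the ERCC spike-in rows. Libraries held between 18485552 and 22311322 gene counts, so that 3 counts, used here as the limit that a count of 0 allows, come to at most 0.162 CPM. That limit covers counting error only. As a check of the labels, Prnp, whose promoter drives the transgene, lay at 1770 CPM or above in 4 of 4 PS19_p16KO libraries and at 1536 CPM or above in 4 of 4 PS19 libraries, against at most 1080 CPM in p16KO and 1070 CPM in WT. Cdkn2a had 2 counts over the 4 PS19_p16KO libraries, 18 over PS19, 3 over p16KO and 8 over WT, which is too few to check the knockout. Markers of hippocampal neurons were present in every library, with a sum over 8 genes of 4695 to 5661 CPM. Most of that sum was Camk2a, at 3910 to 4790 CPM.

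The choroid plexus genes were high in a few libraries, which belonged to 3 different genotypes. Ttr stood at 21.7, 7.29, 5181 and 19.6 CPM in PS19_p16KO libraries 1 to 4 and 12.3, 23.5, 7.69 and 30.4 CPM in PS19. The p16KO libraries had 153, 20.1, 22.1 and 2987 CPM, and the WT libraries 717, 21.2, 16.9 and 18.2 CPM. The gene thus spanned 711-fold over 16 libraries. A high library stood in 3 of the 4 groups, PS19_p16KO library 3, p16KO library 4 and WT library 1, and p16KO library 1 was raised to a lesser extent. The remaining 12 libraries, all 4 PS19 libraries among them, lay between 7.29 and 30.4 CPM. In group means, Ttr had 1307 CPM ± 2582 in PS19_p16KO, 18.5 CPM ± 10.4 in PS19, 796 CPM ± 1462 in p16KO and 193 CPM ± 349 in WT (SD, n = 4 each), so that in each group with a high library the SD was larger than the mean. Together the 31 members took 1.039% of all gene counts in PS19_p16KO library 3, 0.6623% in p16KO library 4 and 0.1978% in WT library 1, against 0.02739% to 0.05836% in the other 13. Ttr was 49.88% of the member counts in PS19_p16KO library 3 and 2.404% of them in PS19_p16KO library 2.

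The same libraries were high for nearly all members, whatever their genotype. All 31 were highest in PS19_p16KO library 3. In 29 of 31 the 3 highest libraries were PS19_p16KO library 3, p16KO library 4 and WT library 1, in that order, which was the case, in any order, for 1.73% of all 16372 tested genes. The exceptions were Slc13a4, where WT library 3 and p16KO library 2 stood above WT library 1, and Calml4, where PS19 library 2 did. p16KO library 1 was the fourth highest in 16 members. The SD of log2(CPM + 0.5) over libraries was above 1 in 27 members, against 0.47% of tested genes, and its median was 1.42 over members and 0.146 over tested genes. The members were chosen with earlier results of these data known, so the shares of all genes are a description and no test. The plot of levels by library shows this for members of different abundance.

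**Figure D1:**
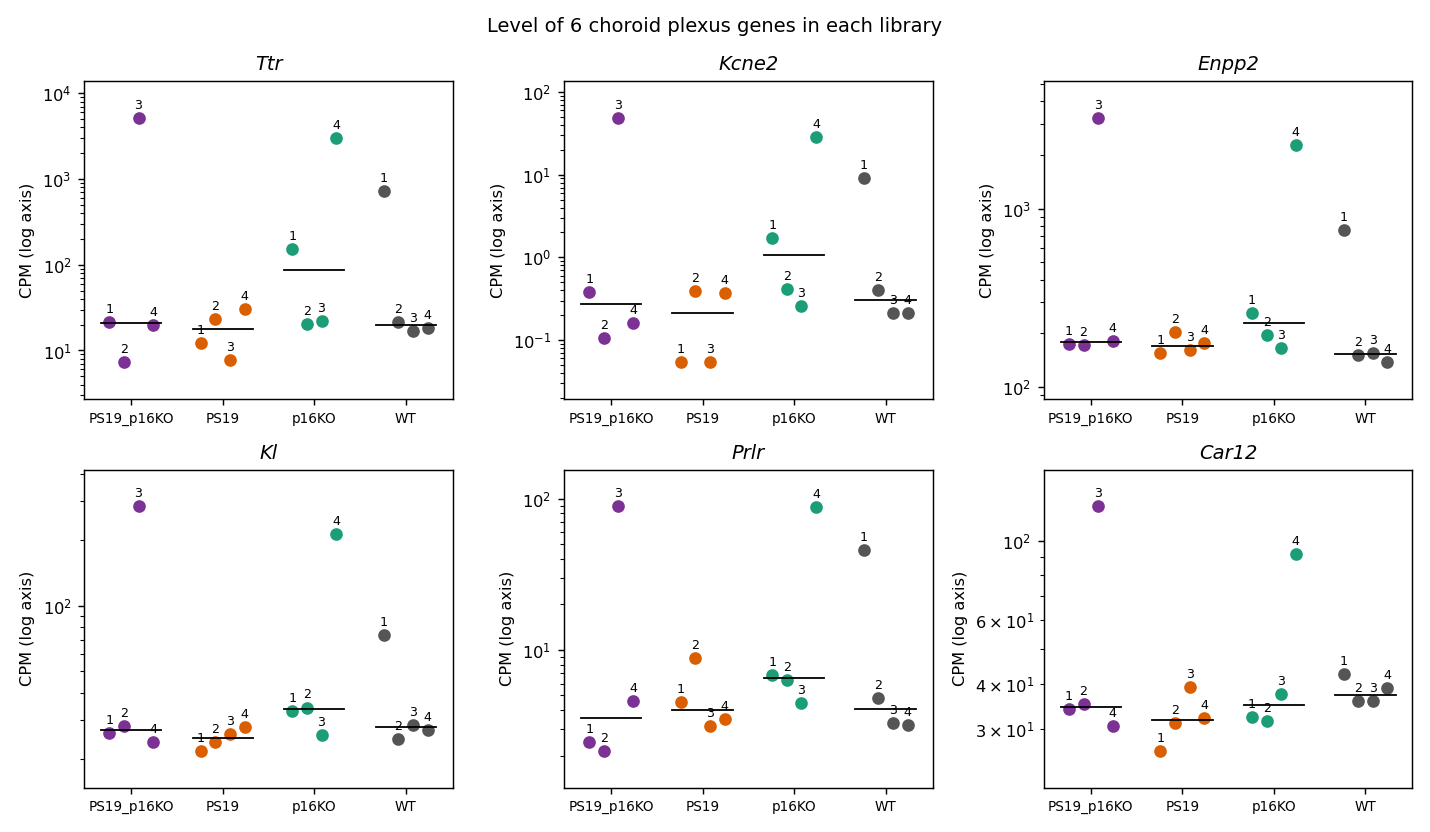
Level of Ttr, Kcne2, Enpp2, Kl, Prlr and Car12 in CPM (log axis) in each library. Points are libraries, marked by replicate number, in the groups PS19_p16KO, PS19, p16KO and WT, and bars are group medians. PS19_p16KO library 3, p16KO library 4 and WT library 1 stand highest in each panel, with Ttr at 5181, 2987 and 717 CPM.

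Of all members, Slc4a5, Tmem72 and Kcne2 followed Ttr most closely, with an SD of the log2 ratio to Ttr over libraries of 0.79, 0.82 and 0.92. Kcne2 was at 0.379, 0.105, 48.9 and 0.162 CPM in PS19_p16KO libraries 1 to 4 and at 0.0537, 0.388, 0.0538 and 0.375 CPM in PS19. Levels in p16KO were 1.71, 0.411, 0.256 and 28.4 CPM, and levels in WT 9.06, 0.403, 0.212 and 0.212 CPM. Kcne2 (chromosome 16, 92292389 to 92298129) encodes a small subunit that modulates potassium channels, and outside the raised libraries it rested on 1 to 9 counts. The PS19_p16KO libraries 1 to 4 held 0.379, 0, 64.4 and 0.325 CPM of Slc4a5 and the PS19 libraries 0.107, 0.631, 0.108 and 0.750 CPM. Those of p16KO held 2.07, 0.308, 0.359 and 42.9 CPM and those of WT 10.2, 0.224, 0.265 and 0.424 CPM. Slc4a5, an electrogenic bicarbonate transporter, had 0 counts in PS19_p16KO library 2, the library with the least Ttr. In PS19_p16KO libraries 1 to 4, Tmem72 was counted at 0.569, 0.105, 65.8 and 0.270 CPM, and in PS19 at 0.215, 0.340, 0.215 and 0.107 CPM. It was counted at 2.25, 0.616, 0.410 and 54.6 CPM in p16KO and at 13.05, 0.269, 0.476 and 0.159 CPM in WT. Tmem72, a membrane protein gene of little known function, had the same order of the high libraries.

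Across libraries these 3 genes kept near to a fixed ratio to Ttr. For each CPM of their sum there were 28.9 CPM of Ttr in PS19_p16KO library 3, 23.7 in p16KO library 4, 25.4 in p16KO library 1 and 22.2 in WT library 1. In the other 12 libraries the ratio ran from 15.1 in p16KO library 2 to 34.8 in PS19_p16KO library 2, where the sum rested on 4 counts. The ratio stayed within these bounds while Ttr varied 711-fold. These 3 genes are the members with the steadiest ratio to Ttr in the same libraries, so a narrow range of their sum is no separate finding. In those 12 libraries the sum rested on 4 to 28 counts. In bulk RNA, fewer cells of a type and less RNA per cell cannot be told apart.

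To see which members have a level of their own in hippocampus, a straight line of each member on Ttr was fitted over the 16 libraries, and its value at 0 Ttr was read as the own level. The line was weighted by counting error and a 20% spread, and the range given is that from leaving out each library in turn. That range shows the pull of single libraries and is no standard error. A member was said to have an own level where this value was at least 0.5 of its median CPM in all of these fits. That held for 25 members, 2 lay between (Aqp1 and Kcnj13), and Kcne2, Slc4a5 and Tmem72 followed Ttr. For Kcne2 the own level was 0.037 CPM (0.0247 to 0.0541), for Slc4a5 0.0131 CPM (-0.00709 to 0.0538) and for Tmem72 0.0386 CPM (0.0224 to 0.0538), all below the limit that a count of 0 allows. That these 3 followed Ttr depended on the weights. In an unweighted line all 30 other members reached 0.5 of their median, and the values at 0 Ttr were 0.227 CPM for Kcne2, 0.273 CPM for Slc4a5 and 0.617 CPM for Tmem72, above that limit. The lowest libraries of these genes, at 0.0537, 0 and 0.105 CPM, lay below the unweighted values. Ttr was set against 8 other members, where the line gave -123 CPM at 0. The sum of these 8, mostly Kl, was never under 27.7 CPM, so that this line says nothing on Ttr. Against Kcne2, Slc4a5 and Tmem72, a choice made after seeing the data, the value of Ttr at 0 was 1.73 CPM, below its lowest library of 7.29 CPM.

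**Figure D2:**
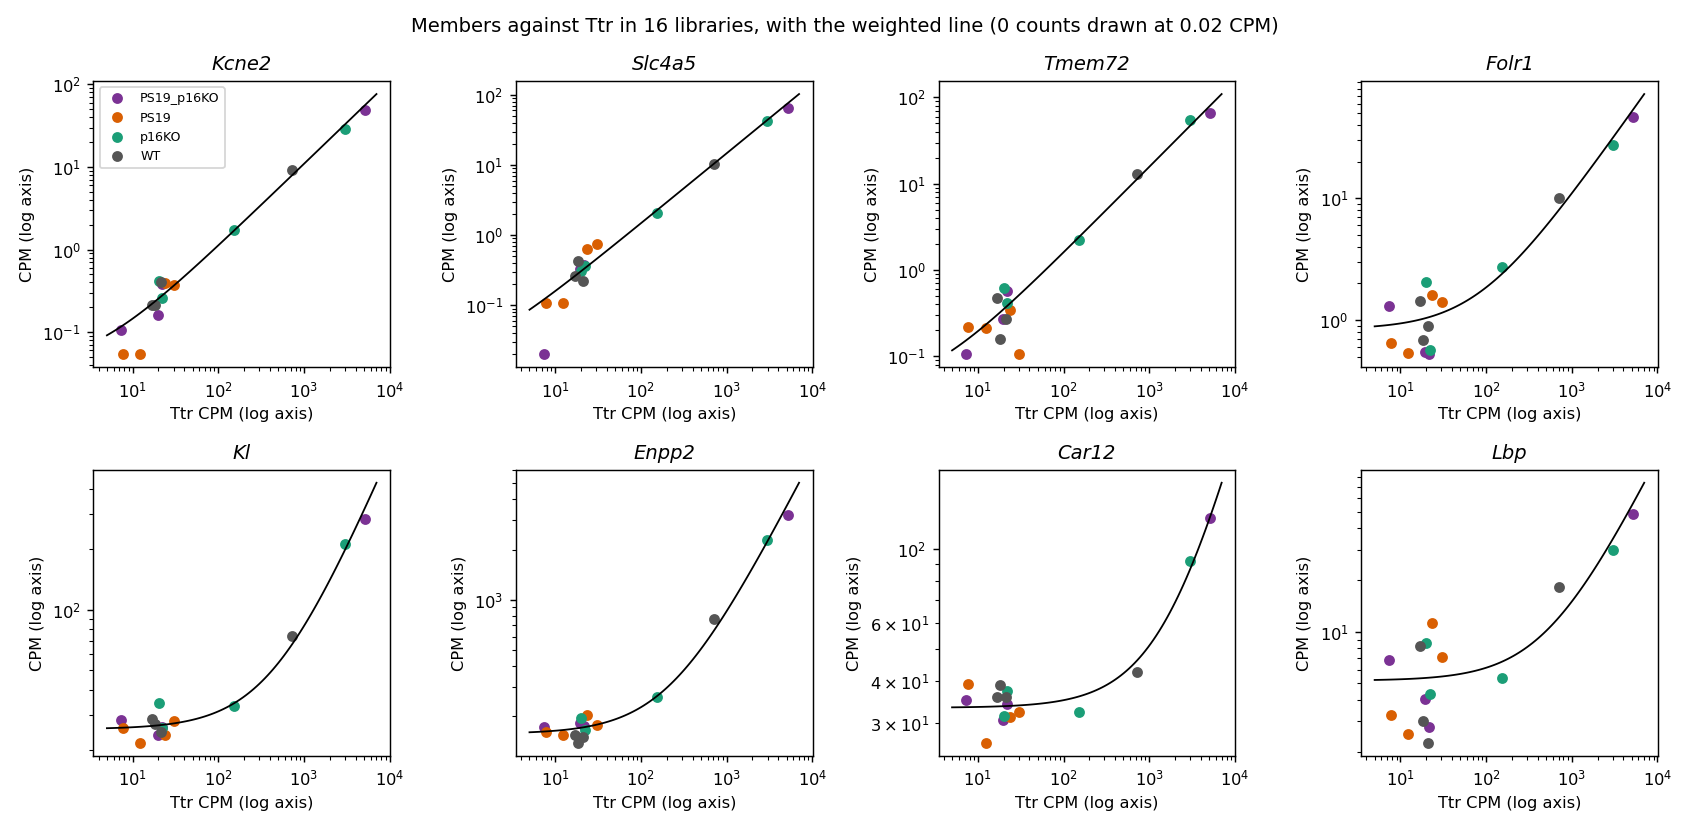
CPM of 8 members (vertical, log axis) against CPM of Ttr (horizontal, log axis) in the 16 libraries, coloured by group, with the weighted line on Ttr. Kcne2, Slc4a5 and Tmem72 run straight down with Ttr, while Kl, Enpp2 and Car12 level off at 25.4, 156 and 33.2 CPM. The line of Lbp levels off at 5.18 CPM, but its libraries low in Ttr scatter from 2.24 to 11.2 CPM.

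The largest own level by the line on Ttr was that of Enpp2. Enpp2 had 175, 172, 3233 and 180.4 CPM in PS19_p16KO libraries 1 to 4 and 155, 203, 161 and 177 CPM in PS19. The p16KO libraries had 260.0, 195, 165 and 2278 CPM, and the WT libraries 762, 150.4, 154 and 138 CPM. Enpp2 (chromosome 15, 54838901 to 54952892) encodes autotaxin, which makes lysophosphatidic acid, and is also a gene of oligodendrocytes. Its own level was 156 CPM (154 to 159), or 88.9% of its median, and 4.83% of its level in PS19_p16KO library 3. With the sum of 8 other members in place of Ttr, the value of Enpp2 was 26.1 CPM, under 0.5 of its median, and that of Car12 29.4 CPM. That sum was never under 27.7 CPM, so both values at 0 lie outside the data and decide nothing on own levels.

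Kl came next among secreted and shed proteins. Kl was at 26.1, 28.1, 284 and 23.7 CPM in PS19_p16KO libraries 1 to 4 and at 21.7, 23.9, 25.8 and 27.9 CPM in PS19. Levels in p16KO were 33.1, 34.2, 25.7 and 212 CPM, and levels in WT 73.7, 24.7, 28.5 and 27.1 CPM. Kl (chromosome 5, 150952607 to 150993817) encodes klotho, a coreceptor of a fibroblast growth factor, and is also known from neurons. Its own level was 25.4 CPM (24.7 to 25.8), 92.5% of the median, and the 12 libraries low in Ttr lay between 21.7 and 34.2 CPM. For Sostdc1, a secreted antagonist of BMP and Wnt signals, the own level was 2.88 CPM (2.83 to 2.92), and its libraries outside the 4 raised ones lay between 2.65 and 3.52 CPM. The PS19_p16KO libraries 1 to 4 held 0.521, 1.31, 46.4 and 0.541 CPM of Folr1 and the PS19 libraries 0.537, 1.60, 0.646 and 1.39 CPM. Those of p16KO held 2.70, 2.05, 0.564 and 27.6 CPM and those of WT 10.01, 0.896, 1.43 and 0.690 CPM. Folr1 encodes the folate receptor of the epithelium, and its lowest libraries lay in PS19 and in PS19_p16KO. F5, coagulation factor V, had an own level of 1.18 CPM (1.07 to 1.25) and Folr1 0.836 CPM (0.746 to 0.884), which is 1.8% of the Folr1 level in PS19_p16KO library 3.

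Car12 was the member that varied least between libraries relative to its level, with an SD on the log2 scale of 0.587. In CPM it still rose with Ttr. The slope of its line was 17.9 CPM per 1000 CPM of Ttr, against 10.9 for Kcne2, 14.7 for Slc4a5 and 15.6 for Tmem72. The part of choroid plexus RNA in its level was not tested. In PS19_p16KO libraries 1 to 4, Car12 was counted at 34.1, 35.02, 124 and 30.5 CPM, and in PS19 at 26.01, 31.1, 39.2 and 32.2 CPM. It was counted at 32.3, 31.5, 37.4 and 91.9 CPM in p16KO and at 42.5, 35.8, 35.7 and 38.8 CPM in WT. Car12 (chromosome 9, 66713686 to 66766845) encodes a membrane carbonic anhydrase. Its own level of 33.2 CPM (32.8 to 33.9) was 26.7% of its highest value, the largest such share of all members. WT library 1, with 717 CPM of Ttr, had 42.5 CPM of Car12, against 38.8 CPM in WT library 4 and 39.2 CPM in PS19 library 3.

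The channel genes had far lower own levels. Clic6 had 1.66, 1.31, 178 and 2.33 CPM in PS19_p16KO libraries 1 to 4 and 0.752, 6.21, 2.37 and 5.25 CPM in PS19. The p16KO libraries had 7.52, 4.26, 1.59 and 104 CPM, and the WT libraries 37.6, 2.82, 2.96 and 1.38 CPM. Clic6 encodes a chloride channel protein, and PS19 library 2 was its highest outside the 4 raised libraries. Aqp1 was at 0.664, 0.315, 54.5 and 0.541 CPM in PS19_p16KO libraries 1 to 4 and at 0.430, 0.922, 0.538 and 0.857 CPM in PS19. Levels in p16KO were 1.31, 0.822, 0.462 and 31.9 CPM, and levels in WT 8.96, 0.224, 0.265 and 0.424 CPM. Aqp1 encodes the water channel of the apical membrane. In the 12 libraries low in Ttr it rested on 5 to 19 counts, with 8 counts in both WT library 4 and PS19 library 1. Own levels were 1.87 CPM (1.61 to 2.07) for Clic6, 0.816 CPM (0.769 to 0.85) for the osmotically sensitive channel gene Trpv4, 0.33 CPM (0.304 to 0.359) for Aqp1 and 0.266 CPM (0.162 to 0.313) for the potassium channel gene Kcnj13. Exons of Kcnj13 share 623 bases with Gigyf2 on the opposite strand, and no source used here states whether counting used the strand, so low counts of Kcnj13 may belong to either gene.

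Among receptors and enzymes, Ace, the angiotensin-converting enzyme, had an own level of 12.6 CPM (12.2 to 12.8) and Sulf1, which trims sulfate from heparan sulfate, 6.86 CPM (6.33 to 7.1). Abca4, a retinoid transporter known from photoreceptors, had 1.41 CPM (1.32 to 1.48). Steap1, of a family of metal reductases, had 0.144 CPM (0.119 to 0.162), which is within the limit of a count of 0, and was not counted in 3 libraries. The PS19_p16KO libraries 1 to 4 held 2.46, 2.15, 88.8 and 4.60 CPM of Prlr and the PS19 libraries 4.51, 8.78, 3.12 and 3.48 CPM. Those of p16KO held 6.80, 6.32, 4.46 and 88.2 CPM and those of WT 45.5, 4.84, 3.28 and 3.18 CPM. Prlr, the prolactin receptor, had an own level of 3.65 CPM (3.28 to 3.85). PS19_p16KO library 3 and p16KO library 4 were at nearly the same Prlr level, although PS19_p16KO library 3 had more Ttr.

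By the line on Ttr, all 8 matrix, junction and filament genes had own levels. When ependyma and meninges sums were added, only Col9a3, Cldn1 and Krt18 stayed at 0.5 of the median or above. Those values were read below the sums of any library. In PS19_p16KO libraries 1 to 4, Col9a3 was counted at 8.96, 8.70, 81.6 and 8.66 CPM, and in PS19 at 12.6, 12.4, 8.82 and 12.9 CPM. It was counted at 10.9, 8.68, 8.67 and 49.6 CPM in p16KO and at 21.1, 7.57, 11.004 and 5.83 CPM in WT. Col9a3 was highest in the same 3 libraries as Ttr, and its remaining values overlap between the 4 groups. Col9a3, a collagen IX chain, had 9.29 CPM (9.01 to 9.61), Col8a2 3.24 CPM (2.94 to 3.38) and Col8a1, its collagen VIII partner, 0.577 CPM (0.536 to 0.606). The tight junction genes differed: Cldn1 had an own level of 2.11 CPM (2.04 to 2.21), 10.4% of its highest value, and Cldn2 0.9 CPM (0.825 to 0.956), 2.21% of its highest value. The simple epithelial keratins Krt8 and Krt18 had 0.929 CPM (0.772 to 1.01) and 0.477 CPM (0.445 to 0.518), and Calml4, a calmodulin-like protein of brush borders, 1.23 CPM (1.05 to 1.32). Msx1 had 4.79, 5.30, 32.7 and 5.79 CPM in PS19_p16KO libraries 1 to 4 and 5.0, 7.62, 4.84 and 5.04 CPM in PS19. The p16KO libraries had 5.0, 5.75, 6.10 and 21.8 CPM, and the WT libraries 13.3, 3.54, 7.35 and 5.78 CPM. Msx1, a homeobox gene, stood highest in PS19_p16KO library 3, but in PS19 its library 2 was set apart from the other PS19 libraries. Of the homeobox genes, Msx1 had an own level of 5.46 CPM (5.29 to 5.64) and Otx2, which is needed for the plexus to form, 0.722 CPM (0.602 to 0.798).

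Levels of different genes can be compared only per length. Per kb of exon, PS19_p16KO library 3 had 4368 CPM of Ttr and 559 CPM of Enpp2, followed by Clic6 with 45.4, Kcnj13 with 42.9, Ace with 41.8 and Kl with 30.5 CPM per kb. The order of the own levels per kb was different, with Enpp2 at 27.0, Car12 at 4.38, Kl at 2.72, Col9a3 at 2.41, Ace at 2.38, Msx1 at 1.76 and Sostdc1 at 1.61 CPM per kb. The own levels per kb of Col9a3 and Ace are not ordered, since leaving out a library moved both by more than they differ. For the other genes the order is that of the fitted values, and its certainty was not tested.

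**Figure D3:**
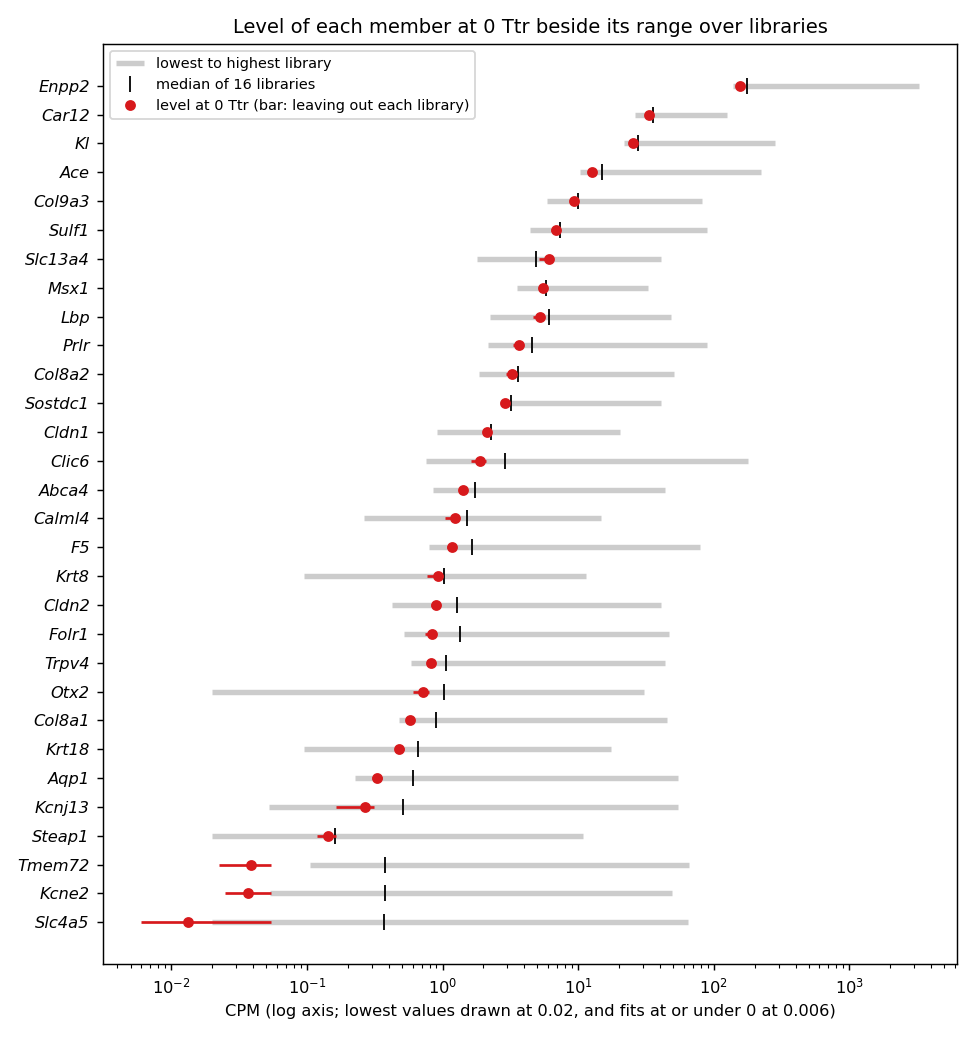
Own level of each member at 0 Ttr in CPM (log axis), as red points with the range from leaving out each library, beside the range over the 16 libraries (grey) and their median (tick). The own level lies near the median for Enpp2, Car12 and Kl, and far below it for Tmem72, Kcne2 and Slc4a5.

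Leaving out the 3 high libraries moved the larger own levels little. Without them the values were 156 CPM for Enpp2, 34.2 for Car12, 25.5 for Kl and 9.32 for Col9a3, and Kcnj13 and Steap1 fell under 0.5 of their median. Allowing for other tissues moved the values of more members. When the sums of 10 ependyma and 10 meninges and fibroblast genes were added to the line, a choice made after seeing the data, 10 members kept a value of at least 0.5 of their median, namely Car12, Cldn1, Col9a3, Enpp2, Kl, Krt18, Sostdc1, Steap1, Sulf1 and Trpv4. Lbp, Slc13a4, Col8a2, Otx2, Folr1, Clic6, F5, Cldn2, Abca4 and Kcnj13 then had values below 0, so that the own levels given above for them hold for the line on Ttr alone. These values are read at ependyma and meninges sums of 0, while no library was under 28.3 and 111 CPM. They lie outside the data and cannot say whether an own level comes from these tissues. With the sum of 8 other members in place of Ttr, 6 members kept such a value, Car12, Cldn1, Col9a3, Kl, Msx1 and Slc13a4. For members outside these 8 that sum was never under 27.7 CPM, so such values at 0 also lie outside the data.

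Some of these genes varied widely between the libraries low in Ttr. Slc13a4 was at 3.93, 3.51, 40.4 and 4.0 CPM in PS19_p16KO libraries 1 to 4 and at 3.22, 4.90, 6.08 and 4.77 CPM in PS19. Levels in p16KO were 4.82, 15.9, 7.03 and 28.3 CPM, and levels in WT 13.3, 3.05, 17.8 and 1.80 CPM. Slc13a4 carries sulfate and is also a gene of the meninges. It was high in p16KO library 2 and WT library 3, where Ttr was 20.1 and 16.9 CPM, and it stood at 2.55 times its line in p16KO library 2 and 2.86 times its line in WT library 3. The PS19_p16KO libraries 1 to 4 held 2.80, 6.82, 48.4 and 4.06 CPM of Lbp and the PS19 libraries 2.53, 11.2, 3.28 and 7.13 CPM. Those of p16KO held 5.41, 8.63, 4.31 and 29.9 CPM and those of WT 18.2, 2.24, 8.31 and 3.02 CPM. Lbp encodes the lipopolysaccharide-binding protein, and PS19 library 2, p16KO library 2, WT library 3 and PS19 library 4 were its highest libraries among those low in Ttr. In PS19_p16KO libraries 1 to 4, Otx2 was counted at 0.379, 0.524, 30.7 and 0.433 CPM, and in PS19 at 0.484, 1.60, 0.753 and 1.29 CPM. It was counted at 1.94, 1.44, 0.718 and 18.8 CPM in p16KO and at 6.50, 0.403, 2.12 and 0 CPM in WT. For Otx2 the same 4 libraries were the highest of those low in Ttr, and WT library 4 had 0 counts.

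Members lay above or below their lines together in some libraries. Of 30 members, 24 lay above the line in p16KO library 2, 24 in WT library 3 and 21 in PS19 library 2, against 5 in WT library 4 and 7 in WT library 2. The ependyma list summed to 97.1 CPM in PS19 library 2, 64.4 in p16KO library 2 and 68.1 in WT library 3, against 32.6 in WT library 4 and 32.5 in WT library 2. The meninges and fibroblast list summed to 149, 202 and 188 CPM in PS19 library 2, p16KO library 2 and WT library 3, against 127 in WT library 4 and 132 in WT library 2. Not all libraries followed this: p16KO library 3 had a meninges sum of 150.5 CPM with 11 members above the line, and PS19 library 4 had 17 members above it with a meninges sum of 119 CPM and an ependyma sum of 60.8 CPM. All 10 genes of either list were above 0 in every library. Much of the meninges and fibroblast sum was Pdgfra, at 56.1 to 75.3 CPM, and Dcn, at 17.8 to 45.5 CPM. Its other genes were each higher in p16KO library 2 and WT library 3 than in PS19 library 2 or WT libraries 2 and 4. Slc6a13 had 15.3 and 15.8 CPM in p16KO library 2 and WT library 3, against 4.03 CPM in PS19 library 2. Osr1 differed less, with 4.26 and 2.96 against 2.52 CPM in the same libraries. The sums show little of this. Over groups, the ependyma sums ranged from 28.3 to 74.5 CPM in PS19_p16KO, 29.7 to 97.1 in PS19, 38.1 to 64.4 in p16KO and 32.5 to 74.9 in WT. The meninges and fibroblast sums ranged from 111 to 148 CPM in PS19_p16KO, 119 to 149 in PS19, 135 to 202 in p16KO and 127 to 188 in WT. The part of these tissues in the members' levels was not tested. Of the high libraries, WT library 1 had 26 members above the line, p16KO library 4 had 10 and PS19_p16KO library 3 had 4. The ependyma sum was 74.5 CPM in PS19_p16KO library 3, 58.1 CPM in p16KO library 4 and 74.9 CPM in WT library 1, which was exceeded by PS19 library 2 alone. The meninges and fibroblast sum was 148, 165 and 144 CPM in the same libraries. The map of observed over fitted levels shows these libraries as columns of members above the line.

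**Figure D4:**
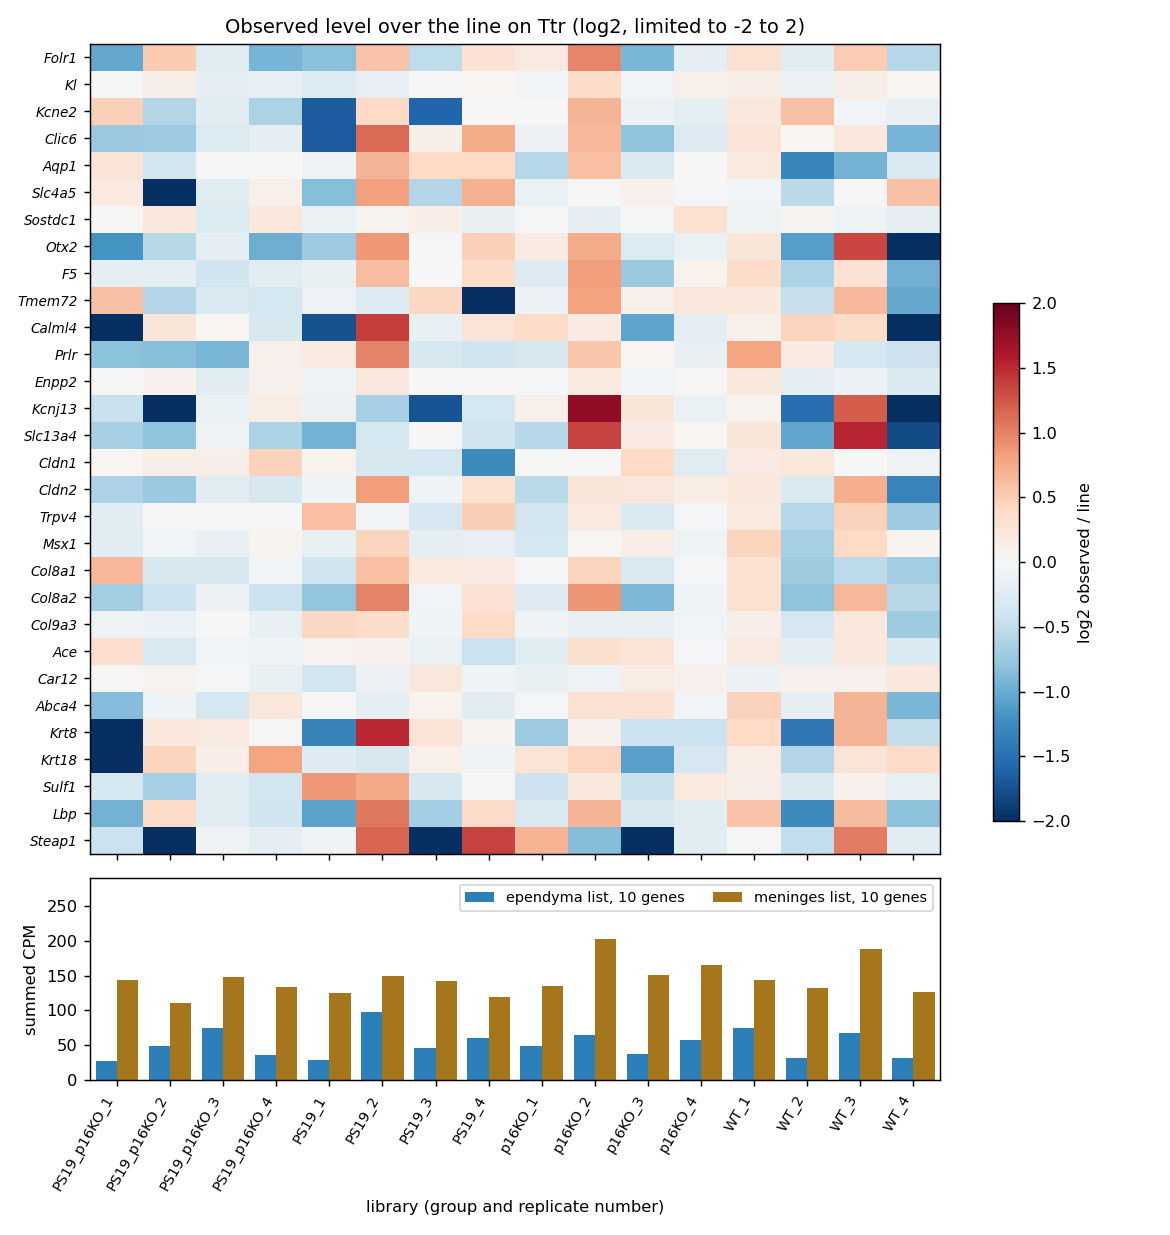
Upper panel: log2 of the observed CPM over the CPM of the line on Ttr for 30 members (rows) in 16 libraries (columns), limited to -2 to 2, red above the line. Lower panel: summed CPM of the ependyma and the meninges and fibroblast lists in the same libraries. p16KO library 2, WT library 3 and PS19 library 2 have 24, 24 and 21 members above the line.

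The high libraries also differed in the levels of members per Ttr. With the own level taken off, each member was set against 1000 CPM of Ttr in the same library. For most members, PS19_p16KO library 3 had less per Ttr than either other library: the values of p16KO library 4 were above it in 21 of 30 members (median ratio 1.04), and those of WT library 1 in 29 of 30 (median ratio 1.35). All 30 values of a library share its Ttr level, so a difference in Ttr alone would move them together. The counts of members are therefore not separate events. Prlr stood out, with 16.4 CPM per 1000 CPM of Ttr in PS19_p16KO library 3, 28.3 in p16KO library 4 and 58.3 in WT library 1. The hormone receptor was therefore 3.55 times as high per Ttr in WT library 1 as in PS19_p16KO library 3. Sostdc1 was highest per Ttr in p16KO library 4, with 11.4 CPM, against 7.35 in PS19_p16KO library 3 and 8.26 in WT library 1. Each of these is a value of a lone library, with no replicate check, and the part of the ependyma and meninges sums given above in these differences was not tested.

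Further choroid plexus genes outside the 31 varied with them. The spread of the log2 ratio to Ttr (0.5 CPM added) had a median SD of 1.64 over 30 members and 2.92 over 14512 genes with a mean of at least 1 CPM. Without the 3 high libraries these medians were 0.956 and 1.05, so the closeness to Ttr rested largely on those libraries. In the order of the spread over all 16 libraries, 19 of the first 25 genes were members, and all 30 members lay within the first 100. Members and further genes were chosen with earlier results of these data known, so these ranks are a description and no test. Of 15 further genes of the epithelium, 12 had a mean of at least 1 CPM, and the 6 closest to Ttr were Ecrg4 (listed as 1500015O10Rik), Prr32, Wdr86, Slc16a8, Rdh5 and Slc2a12, with an SD of 1.47 to 1.92. Ecrg4, a secreted peptide precursor, had 1.04, 0.996, 56.02 and 1.41 CPM in PS19_p16KO libraries 1 to 4 and 1.72, 3.06, 0.807 and 1.61 CPM in PS19. Its levels were 2.21, 2.26, 1.54 and 29.5 CPM in p16KO and 12.1, 1.17, 2.70 and 0.690 CPM in WT. The least close of the 12 was Slc22a8, an organic anion transporter, with an SD of 2.8.

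Of all other named genes, predicted models left out, Mfrp was closest to Ttr, at rank 4 with an SD of 1.04. Mfrp had 0.901, 0.419, 72.2 and 0.433 CPM in PS19_p16KO libraries 1 to 4 and 1.13, 0.631, 0.700 and 0.857 CPM in PS19. The p16KO libraries had 2.16, 0.771, 0.462 and 60.4 CPM, and the WT libraries 11.3, 0.314, 0.635 and 0.690 CPM. Mfrp, a membrane protein gene known from the retinal pigment epithelium, was high in the same libraries as Ttr and shares 1589 exon bases with C1qtnf5, which had 0 counts. The next were Rbm47, Oca2, Pcolce, Pla2g5, Drc7, Epn3, Sema3b, Col4a4 and Lepr, at ranks 24 to 44 with an SD of 1.81 to 2.14. Oca2 acts in melanin synthesis, Pcolce helps to process collagen, and Lepr is the leptin receptor.

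Differences between the genotypes were tested with edgeR's quasi-likelihood test over all 16372 genes, with p-values adjusted over all of them by Benjamini and Hochberg. No member passed in any comparison (0 of 31 in each). Of all genes, 0.825% were called in PS19_p16KO against PS19, 0.0183% in PS19_p16KO against p16KO, 1.61% in PS19 against WT, 0% in p16KO against WT and 0.00611% in the interaction of the genotypes. PS19_p16KO against PS19 had the largest fold changes, with a median log2 fold change of 2.93 over members and 0.00176 over all genes, and 31 of 31 were positive. Ttr had a log2 fold change of 6.13 ± 2.62 in edgeR (unadjusted p = 0.0374, adjusted p = 0.521). The ± of a fold change is a standard error worked out from the edgeR fold change and its F statistic. In edgeR 6 members had an unadjusted p under 0.05, where 1406 genes did, and in DESeq2 0 members did. DESeq2 by default withholds the p-value of a gene with an outlying library, and a withheld value was counted as not passing. Its 0 therefore decides nothing on the members. That count of 6 turned on single libraries: it was 17 without p16KO library 4, 13 or 14 without PS19_p16KO library 1, 2 or 4, 0 without PS19_p16KO library 3, and 0 or 1 when any 1 of the PS19 libraries was left out. The member with the smallest adjusted p was Cldn1 in edgeR, at log2 2.06 ± 0.79 (adjusted p = 0.422). The direction rested on PS19_p16KO library 3: without it the median over members was -0.31 and the log2 fold change of Ttr -0.17.

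PS19 against WT had a median log2 fold change of -1.10 over members and -0.0051 over all genes, and 1 of 31 was positive. Ttr had log2 -3.38 ± 2.37 in edgeR (adjusted p = 0.762), and without WT library 1 the median over members was 0.31 and Ttr had -0.04. In p16KO against WT the median was 1.27 with 31 of 31 positive, and Ttr had log2 2.04 ± 2.14 in edgeR (adjusted p = 0.999). Without p16KO library 4 that median was -0.72 and Ttr had -1.55. In PS19_p16KO against p16KO, which sets a group with a high library against another, the median was 0.47, and 29 of 31 were positive. Its sign turned without PS19_p16KO library 3, to -2.75. The interaction of the genotypes had a median of 1.49 over members, and 31 of 31 were positive. Without PS19_p16KO library 3 it was -1.59 with 1 of 31 positive, without WT library 1 it was 0.28, and without p16KO library 4 it was 3.62. By an unadjusted p under 0.05, 0 members passed in edgeR in these 4 comparisons, where 1567, 653, 598 and 890 genes did. DESeq2 also called 0 members, with withheld p-values counted as not called.

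The fits were repeated without PS19_p16KO library 3, p16KO library 4 and WT library 1, a choice made after seeing the data. Those libraries were picked for their high levels of members, and Ttr, used as a covariate in another fit, is itself a member, so smaller fold changes in these fits are no finding. Without the 3 libraries, the medians over the 29 members then tested were 0.31 in PS19 against WT, 0.44 in p16KO against WT, -0.31 in PS19_p16KO against PS19, -0.59 in PS19_p16KO against p16KO and -0.91 in the interaction. With log2 Ttr as a covariate they were 0.39, 0.01, -0.14, 0.23 and -0.11 over 30 members. The comparisons share groups with each other, so their values are not independent. Of the further list of 15 genes, 14 were tested and 0 were called in each comparison, with a median log2 fold change of 1.56 in PS19_p16KO against PS19 and -0.48 in PS19 against WT. In the ependyma list the same medians were -0.20 and 0.15, with 0 of 10 called.

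**Figure D5:**
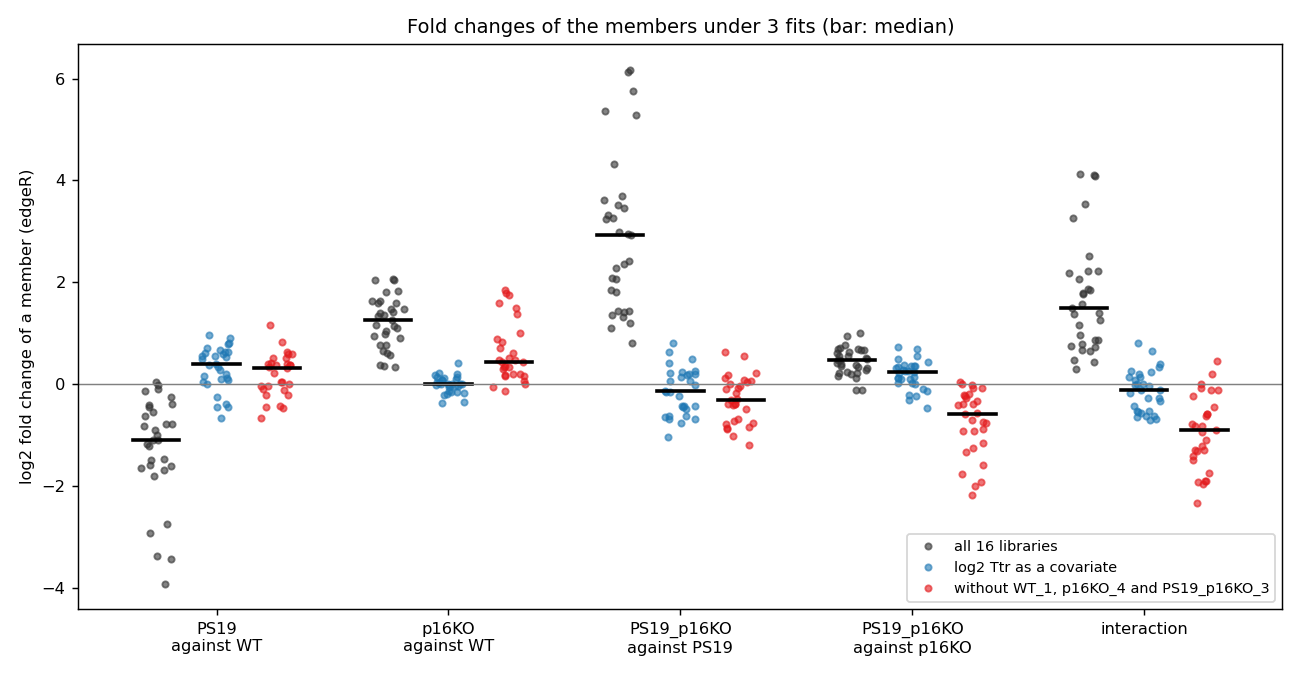
log2 fold change of each member (points, edgeR) in 4 comparisons of groups and in the interaction, with all 16 libraries (black), with log2 Ttr as a covariate (blue) and without WT_1, p16KO_4 and PS19_p16KO_3 (red); bars are medians. With all libraries the medians run from -1.10 to 2.93, and in PS19_p16KO against PS19 the median is -0.14 with the covariate and -0.31 without the 3 libraries.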

How the data were processed

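Total RNA of the isolated hippocampus was sequenced in 16 libraries. The deposited file holds raw counts per gene and library, whole numbers that the authors made before any normalization. The submitters' processing notes name the build GRCm38, DESeq2, Subread 1.5.2 with featureCounts, STAR 2.5.2b and Trimmomatic 0.36. Not given in the sources used here are the annotation release and whether strand was used. Of 49671 gene rows, 49326 had a symbol in the reference annotation of GRCm38, and 92 ERCC spike-in rows, 0.574% to 1.06% of a library's total, counted toward no library size and entered no test.

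The groups came from the genotype labels. CPM and CPM per kb of exon were computed from the counts. Genotypes were compared with edgeR 4.0.16 in R 4.3.3 (quasi-likelihood test, TMM scaling, filterByExpr with a minimum count of 10, 16372 genes, 1 mean for each group in a fit of all 16 libraries, Benjamini-Hochberg adjustment, threshold 0.05). DESeq2 1.42.0, RLE scaling, other filters, blocks, a Ttr covariate and left-out libraries were alternatives. The procedures were tested on simulated data. The line on Ttr is described with its results, and lists of further choroid plexus, ependyma, meninges and fibroblast, thalamus and habenula, and hippocampal neuron genes gave the surroundings. Named genes are all 31 members, the 6 further choroid plexus genes and the 10 other genes with the steadiest ratio to Ttr, and the checks Cdkn2a and Prnp. Other genes were named after seeing their values. The members and lists were chosen with earlier results of these data known. Replicates differed by more than counting noise (chi-square over degrees of freedom 4.72 to 25.4 for pairs within a group), so none was counted as a copy.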

Additional observations from a re-analysis of the deposited data

Results flagged for a closer look

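In each group of 4 libraries, the gap between the highest or the lowest library and its nearest neighbour was divided by the range of the group, on log2(CPM + 0.5). This share passed Dixon's critical value for 4 libraries in 50 of 124 checks over the 31 members and 4 groups, where chance gives about 1 in 20. The members share libraries, so these are not separate events.

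PS19_p16KO library 3 was the highest of its group beyond that value for 26 members. The gap over the range was, for the secreted and transport genes and all others in the order of the list, Ttr 0.839, Folr1 0.85, Kl 0.933, Kcne2 0.915, Clic6 0.903, Aqp1 0.915, Slc4a5 0.884, Sostdc1 0.958, Otx2 0.957, F5 0.961, Tmem72 0.879, Enpp2 0.983, Kcnj13 0.862, Slc13a4 0.95, Cldn1 0.881, Cldn2 0.935, Trpv4 0.976, Msx1 0.906, Col8a1 0.854, Col8a2 0.951, Col9a3 0.985, Ace 0.842, Car12 0.901, Abca4 0.845, Sulf1 0.92 and Steap1 0.91. Most of the range of a member in this group was therefore set by 1 library.

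p16KO library 4 was the highest of its group for 12 members, with a gap over the range of Kl 0.866, Sostdc1 0.842, Prlr 0.866, Cldn2 0.947, Trpv4 0.84, Msx1 0.87, Col9a3 0.874, Ace 0.98, Car12 0.841, Abca4 0.876, Krt8 0.841 and Sulf1 0.833. Ttr, Kcne2, Slc4a5 and Tmem72 are not among them, and p16KO library 1 was the next highest for each of these.

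WT library 1 was the highest of its group for 10 members, with a gap over the range of Ttr 0.94, Kl 0.868, Kcne2 0.908, Aqp1 0.905, Slc4a5 0.909, Sostdc1 0.856, Tmem72 0.87, Prlr 0.853, Enpp2 0.933 and Col8a1 0.978. Ttr and the genes that followed it by the weighted line, Kcne2, Slc4a5 and Tmem72, are among them.

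In PS19, where no library was rich in Ttr, Msx1 was set apart in library 2 by a gap over the range of 0.915, at 7.62 CPM against 4.84 to 5.04 CPM in the other PS19 libraries. Col9a3 was lowest in PS19 library 3 with 0.908, at 8.82 CPM against 12.4 to 12.9 CPM in the others. PS19 library 2 also had the largest ependyma sum of all libraries, 97.1 CPM, and the part of ependymal RNA in its Msx1 level was not tested.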

How the results depend on the processing

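No member was called in any comparison under any setting, where a p-value that DESeq2 withheld was counted as not called. The number of genes called moved by over 1.5 times as follows. DESeq2 called 18 genes in p16KO against WT, 278 in PS19_p16KO against PS19, 7 in PS19_p16KO against p16KO and 88 in the interaction, and without a filter 4 were called in p16KO against WT and 20 in the interaction. RLE scaling gave 6 in the interaction. A term for the leading digit after the hyphen in library names gave 87 in PS19_p16KO against PS19 and 13 in the interaction, with a Ttr log2 fold change of -0.387 in PS19_p16KO against p16KO. With log2 Ttr as a covariate, 6 genes were called in PS19_p16KO against p16KO and 4 in the interaction, and the members' medians turned to 0.389 in PS19 against WT, -0.136 in PS19_p16KO against PS19 and -0.111 in the interaction. Without the 3 high libraries, 7 genes were called in p16KO against WT and 62 in PS19_p16KO against PS19. The medians were then 0.308 in PS19 against WT, -0.311 in PS19_p16KO against PS19, -0.592 in PS19_p16KO against p16KO and -0.908 in the interaction, and Ttr had -0.169, -1.99 and -1.96 in the last 3. The median ratio SD was then 0.956, where that of all genes was 1.05. By the weighted line on Ttr 27 members reached 0.5 of their median, against 30 in an unweighted line, Kcne2, Slc4a5 and Tmem72 included, 10 with ependyma and meninges sums and 6 on the 8 other members. The counts of 10 and 6 rest on values read well below the lowest of those sums, and decide nothing on own levels.

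Leaving out each library gave 124 to 438 genes called in PS19 against WT (by over 1.5 times without WT library 2 or 4 or PS19 library 1, 2 or 3), 0 to 8 in p16KO against WT, 29 to 347 in PS19_p16KO against PS19 (by over 1.5 times without PS19 library 1, 2 or 3 or PS19_p16KO library 1, 2 or 4), 2 to 5 in PS19_p16KO against p16KO and 1 to 160 in the interaction (160 without PS19 library 3). In the same order of comparisons the members' medians ran from -1.41 to 0.309, -0.718 to 2.56, -0.313 to 3.32, -2.75 to 2.34 and -1.59 to 3.62, and those of Ttr from -3.76 to -0.0415, -1.55 to 5.39, -0.171 to 6.54, -5.60 to 4.29 and -2.22 to 7.67. A sign turned where WT library 1, p16KO library 4 or PS19_p16KO library 3 was left out. Own levels were reached by 26 to 27 members, and the median ratio SD ran from 1.45 to 1.69.

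Same-numbered libraries did not vary together, with correlations of their deviations from -0.388 to 0.223, so the numbers were not taken as pairs. With the replicate block, the interaction called 5 genes and the members' medians were -1.0, 0.94, 1.87, 0.08 and 0.95. The causes of these shifts were not tested. Counts limit Kcne2, Slc4a5, Tmem72 and Steap1, whose own levels by the weighted line lie under the limit of 0 counts, and each high library is 1 of 4 in its group.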

Other observations

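Of the 12 further choroid plexus genes with a mean of at least 1 CPM, 6 moved with Ttr less closely than those named above. Igf2, a growth factor also made by the meninges, had an SD of the log2 ratio to Ttr of 2.02, and Igfbp2, which binds it, 2.14. For Spint2, Cab39l, Slc29a4 and Slc22a8 the SD was 2.42, 2.48, 2.62 and 2.80, against 2.92 for the median gene. The 15 genes summed to 890.7 CPM in PS19_p16KO library 3, 656.8 CPM in p16KO library 4 and 289 CPM in WT library 1, and to between 134 and 244 CPM in the other 13 libraries. Thalamus and habenula genes, which would mark tissue from beside the hippocampus, summed to 135 CPM in PS19_p16KO library 3, the lowest of 16 libraries, and to at most 181 CPM in PS19 library 2. The sum was 147 CPM in p16KO library 4 and 167 CPM in WT library 1. Much of it was Ntng1, at 34.3 to 50.3 CPM, and Rora, at 41.1 to 54.7 CPM. Prkcd ran from 9.39 CPM in WT library 4 to 47.7 CPM in WT library 1, with 27.7 CPM in PS19_p16KO library 3 and 23.8 CPM in p16KO library 4. The hippocampal neuron sum was also lowest of the 16 libraries in PS19_p16KO library 3, at 4695 CPM.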
